A study of Mus musculus with 8 samples.

Results

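The genes followed here are 10 that protect cells against oxidants, electrophiles and free heme: Hmox1, Blvra, Blvrb, Nqo1, Srxn1, Txnrd1, Gsr, Gclc, Gclm and Slc7a11. They were chosen by name, and every probe set that the platform annotation assigns to one of them alone was taken, which gave 19 of 45101 probe sets and 10 of 18193 gene symbols. Their RNA was measured in E14.5 mouse fetal liver, on 4 arrays of Eklf knockout embryos (KO) and 4 arrays of wild-type embryos (WT), 1 array per embryo. The KO embryos were Eklf-/-, from B6 lines made with a BAC carrying an engineered Eklf locus and with E2A-Cre mice, and no source used here gives the litters of either group. Eklf, listed as Klf1, encodes a zinc finger activator of the erythroid program. The livers were taken whole, without culture or sorting, at the stage when this organ is the main site of red cell formation, so each value is a mixture of erythroid cells, hepatoblasts, macrophages and other cells.

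Most of the 10 genes are textbook targets of the transcription factor Nrf2. In unstressed cells Keap1 holds Nrf2 in the cytoplasm and hands it to a ubiquitin ligase. Oxidants and electrophiles modify Keap1, Nrf2 then enters the nucleus, and with a small Maf protein it binds the antioxidant response element (ARE). Bach1, which heme inactivates, occupies the same elements as a repressor, and Hmox1 is the best known gene under this double control. Hmox1 encodes heme oxygenase 1, which opens the heme ring and releases iron, carbon monoxide and biliverdin. The biliverdin reductases turn different isomers of biliverdin into bilirubin, Blvra the adult isomer and Blvrb the fetal isomer. The other genes supply reducing power: Slc7a11 imports cystine, Gclc and Gclm together make the first and limiting bond of glutathione, Gsr and Txnrd1 keep glutathione and thioredoxin reduced, Srxn1 repairs overoxidized peroxiredoxins, and Nqo1 reduces quinones.

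The promoter windows of 3 members are printed, 1 each from the thiol, cystine and heme branches. They were chosen by hand. Each holds at least 2 matches of a motif that was searched, but so do windows of Gclm and Txnrd1, which are not printed. RefSeq windows of GRCm38.p6 were at hand for 7 of the 10 genes, 10 windows in all. In the 250 bases before each start site, both strands were searched for the ARE core as TGACNNNGC or TGAGNNNGC, for the CACCC box and CCNCNCCC that EKLF is known to bind, and for TGATGNAAN, a form of the element shared by Atf4 and C/EBP proteins. A match is a description of letters, not a site. In the Srxn1 window, chr2:152105274-152105523 on the plus strand, capitals mark 2 matches of the ARE core, and the one 45 bases before the start contains TGAGTCA, the AP-1 letters, so both readings overlap. In the Slc7a11 window, chr3:50443614-50443863 on the minus strand, capitals mark 2 matches of TGATGNAAN. In the Blvrb window, chr7:27447728-27447977 on the plus strand, capitals mark 5 matches of CACCC or CCNCNCCC. The motifs in capitals differ between the windows, and other motifs are left in lower case. Among those are 2 matches of CACCC in Srxn1 and 1 ARE core each in Slc7a11 and Blvrb.
Srxn1: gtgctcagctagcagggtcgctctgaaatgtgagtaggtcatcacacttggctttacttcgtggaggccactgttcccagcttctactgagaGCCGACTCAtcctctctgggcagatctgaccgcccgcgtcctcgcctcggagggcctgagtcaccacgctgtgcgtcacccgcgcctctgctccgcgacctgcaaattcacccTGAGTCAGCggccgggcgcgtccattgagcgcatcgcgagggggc
Slc7a11: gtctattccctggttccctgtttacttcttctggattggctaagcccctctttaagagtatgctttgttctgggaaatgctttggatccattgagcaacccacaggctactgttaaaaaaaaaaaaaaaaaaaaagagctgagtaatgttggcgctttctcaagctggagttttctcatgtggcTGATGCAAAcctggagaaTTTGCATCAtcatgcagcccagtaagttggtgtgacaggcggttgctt
Blvrb: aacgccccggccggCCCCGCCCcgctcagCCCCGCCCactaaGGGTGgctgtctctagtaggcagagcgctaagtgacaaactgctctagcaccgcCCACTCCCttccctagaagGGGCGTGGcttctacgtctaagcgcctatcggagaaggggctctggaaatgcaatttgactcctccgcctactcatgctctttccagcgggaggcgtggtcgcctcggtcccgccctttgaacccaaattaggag

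An ARE core lay in 6 of the 10 windows, those of Blvra, Srxn1, Slc7a11 and Gclm, 1 of the 2 of Blvrb and 1 of the 3 of Txnrd1, against 23.0% of 32817 RefSeq promoter windows of the same length. Nqo1 had no match of these letters in its window. The letters CACCC were found in 5 of the 10 windows and 52.0% of all, and CCNCNCCC in 4 of the 10 and 45.9% of all. TGATGNAAN was found only in Slc7a11 among the 10, and in 3.44% of all windows. Several members were recognised as Nrf2 targets through such elements, so these shares are a description of the chosen genes.

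Klf1 itself, on its 1 probe set, had log2 signals of 10.81, 10.56, 10.65 and 10.59 in KO replicates 2 to 5, against 14.04, 13.87, 13.98 and 13.90 in WT replicates 1 to 4, a difference (KO minus WT) of -3.29, SE 0.099, with limma adjusted p = 5.9e-07. No source used here gives the place of its probes relative to the deleted part. Median signals were 96.7 to 114 on KO arrays and 79.5 to 84.1 on WT arrays, and the log2 signal of 18S ribosomal RNA was 7.67 to 8.32 on KO arrays and 11.83 to 12.03 on WT arrays. The 3' minus 5' log2 signal of Actb, a measure of RNA integrity, was 0.49 to 0.61 on KO arrays and 0.76 to 0.93 on WT arrays, while that of Gapdh overlapped, at -0.23 to -0.16 on KO arrays and -0.20 to -0.081 on WT arrays. All KO labels share 1 code and all WT labels another, and what the codes mark is not stated, so whatever goes with them cannot be told apart from genotype.

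A probe set was tested where the mean of either group exceeded a signal of 100, by limma over all 8 arrays, and was called when its p, adjusted by Benjamini-Hochberg over all 23379 tested probe sets, was below 0.05. Of the 19 probe sets of the 10 genes 18 were tested, and 11 were called, 8 higher and 3 lower in KO. These are 61.1% of the 18, against 52.2% of all tested probe sets. The 8 higher ones made up 44.4%, against 34.4% of all, and the 3 lower ones 16.7%, against 17.7% of all, so the members as a group stood close to the background of this contrast. Their median log2 difference was 0.37, beside 0.17 over all tested probe sets. For 8 of the 18 all KO arrays were above all WT arrays (44.4%, against 32.4% of all tested), and for 4 they were all below (22.2%, against 17.4%). One of the 8 higher probe sets, that of Slc7a11, passed the signal minimum only through its KO mean and so had to differ. Called probe sets were found for 8 of the 10 genes, this one included, with Txnrd1 and Gsr as the exceptions. Hmox1, Srxn1 and Gclm were higher in KO, Blvra, Blvrb and Nqo1 were lower, and Gclc was called on 1 of its 2 probe sets. With scaling to the hybridisation controls, which raised the median of all genes by 0.75, Blvra and Nqo1 had differences of 0.18 and 0.098 and were no longer called.

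**Figure D1:**
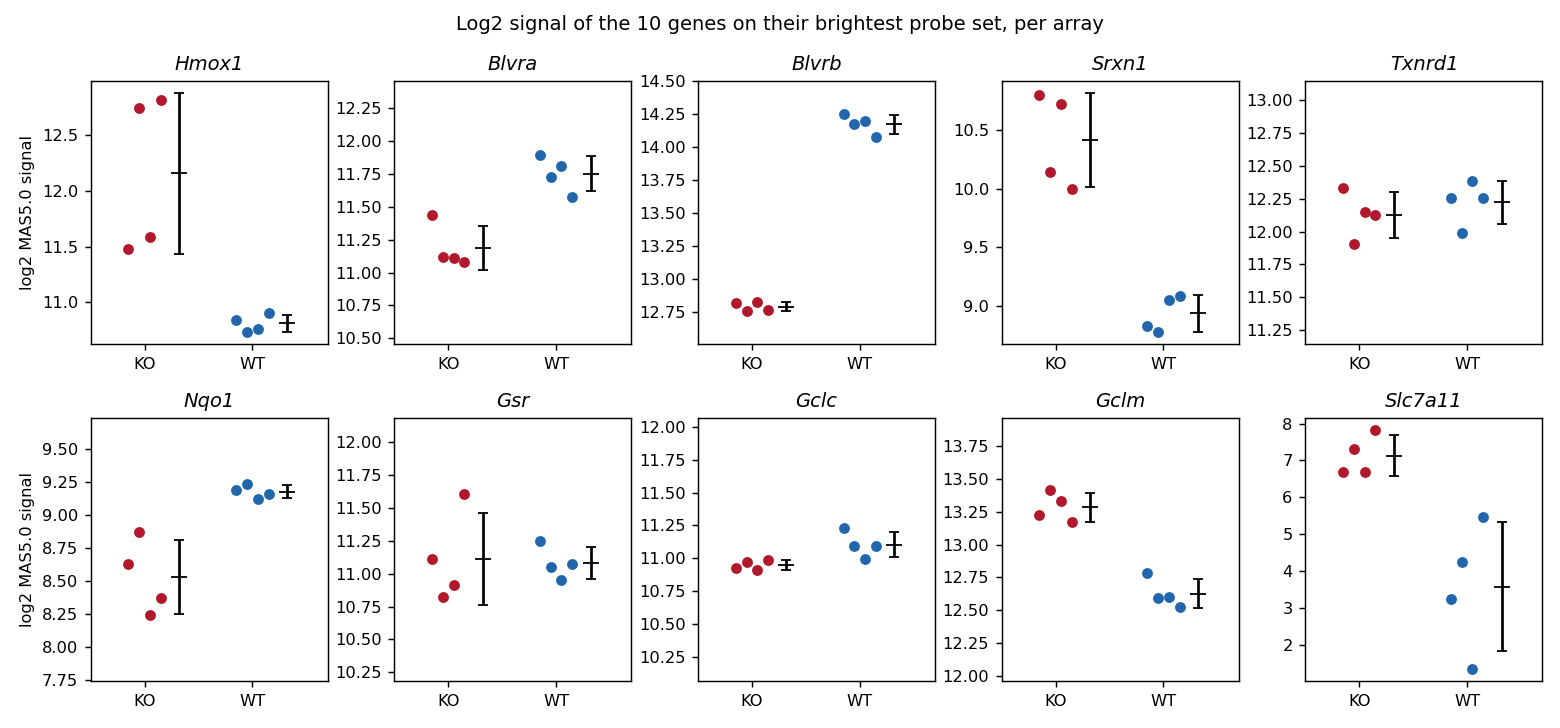
Log2 MAS5.0 signal (vertical axis, its own range in each panel) of the 10 genes on their brightest probe set, with KO arrays on the left and WT arrays on the right of each panel. Points are single arrays, in replicate order from left to right, and the bar is the mean ± SD of 4 arrays. Hmox1 was at 11.47 to 12.82 in KO and at 10.73 to 10.91 in WT, while Txnrd1 and Gsr overlapped between the groups.

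In the heme branch, the first enzyme was higher and both biliverdin reductases were lower in KO livers. Hmox1 had log2 signals of 11.47, 12.74, 11.59 and 12.82 in KO replicates 2 to 5, against 10.84, 10.73, 10.76 and 10.91 in WT replicates 1 to 4. All KO arrays were above all WT arrays, but KO replicates 3 and 5 were more than 1 log2 unit above KO replicates 2 and 4, whereas the WT arrays spanned 0.17. The group means were 12.16 ± 0.72 in KO and 10.81 ± 0.079 in WT (SD, n = 4 each), a 2.54-fold higher level in KO (log2 difference 1.34, SE 0.31, 95% interval 0.64 to 2.05, limma adjusted p = 0.0066). It stayed higher under 4 other scalings (1.08 to 2.09). With the methods' t-test, adjusted by Benjamini-Hochberg over the same probe sets, it was not called (adjusted p = 0.071).

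Blvrb, the reductase of flavins and of the fetal biliverdin isomer, and an abundant protein of red cells, was lower by nearly the same amount on all KO arrays. Its signals were 12.82, 12.75, 12.82 and 12.77 in KO livers and 14.25, 14.17, 14.20 and 14.08 in WT livers on the log2 scale. The KO arrays spanned 0.07, and the fall by 1.39 on the log2 scale, or 2.61-fold (SE 0.089, limma adjusted p = 9.8e-06), was far larger than the spread of either group. With hybridisation control scaling the difference was -0.64. Blvra, the reductase of the adult biliverdin isomer, read 11.44, 11.12, 11.11 and 11.08 in KO livers, against 11.89, 11.73, 11.81 and 11.58 in WT livers. It was 1.48-fold lower in KO (log2 difference -0.57, SE 0.12, limma adjusted p = 0.0046), though not with scaling to the hybridisation controls (0.18).

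Hmox2, the constitutive heme oxygenase, moved opposite to Hmox1. Its log2 signals were 10.48, 10.54, 10.23 and 10.60 in KO livers and 11.17, 11.03, 11.08 and 11.03 in WT livers, a difference of -0.61 (SE 0.11, limma adjusted p = 0.0019) that turned to 0.13 with hybridisation control scaling. Differences between genes on the same array do not depend on a scaling factor. Hmox1 minus Blvrb was higher in KO than in WT by 2.73 on the log2 scale (SD 0.76 in KO and 0.13 in WT, n = 4 each), and Hmox1 minus Hmox2 by 1.96 (SD 0.61 in KO and 0.097 in WT, n = 4 each). On every KO array Hmox1 was above, and Blvrb and Hmox2 were below, all WT arrays. The groups therefore could not overlap in either difference, and this is no further support. Over all tested probe sets 34.4% were called higher and 17.7% lower, the background for every list below in the deposited scaling. Under other scalings the background was 77.6% and 2.58% (hybridisation control), 22.3% and 30.9% (75th percentile), 23.9% and 23.0% (quantile), and 24.8% and 12.9% (poly-A control). Of 11 measured genes of heme breakdown and transport, 2 were lower and 9 were not called, with a median of -0.089. The list had no stable direction, with 8 higher under hybridisation control scaling (median 0.66), 5 lower under 75th percentile scaling, and 2 higher and 3 lower under quantile normalization. The 2 were Hmox2 and Slc48a1, a heme transporter of the endolysosome (-0.51, SE 0.10, limma adjusted p = 0.0035, or 0.24 with hybridisation control scaling).

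In the deposited scaling, markers of erythroid cells were mostly lower in KO, while those of macrophages were mostly not called. Of 18 measured erythroid markers 14 were lower in KO and 4 were not called (9 lower and 3 higher with hybridisation control scaling), and their summed signal was 114591 to 133638 on KO arrays, against 258724 to 273199 on WT arrays. In bulk tissue, fewer cells of a type and less RNA per cell cannot be told apart. Macrophages, which recycle heme and are rich in Hmox1, had 16 measured markers, of which 1 (Timd4, -1.23) was lower and 15 were not called, whereas 7 were higher and 1 lower with hybridisation control scaling, and 8 were lower with 75th percentile scaling. Their summed signal was 16668, 21993, 19343 and 35469 on KO replicates 2 to 5, and 23660 to 29738 on WT arrays, so that the 4 KO arrays had the same order as for Hmox1 while the groups overlapped. Cd163, the hemoglobin scavenger receptor of macrophages, and Vsig4 were under the signal minimum in both groups. The part of these cells in the Hmox1 and Blvrb values was not tested.

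Among the enzymes that restore protein thiols and reduce quinones, Srxn1 and Nqo1 went in opposite directions, and no probe set of Txnrd1 or Gsr was called in the deposited scaling. Srxn1 encodes sulfiredoxin and has 4 probe sets. On the brightest, 1426875_s_at, the log2 signals were 10.79, 10.14, 10.72 and 10.00 in KO livers and 8.84, 8.78, 9.06 and 9.09 in WT livers. This is a 2.78-fold rise (log2 difference 1.47, SE 0.20, limma adjusted p = 3.9e-04). Probe set 1451680_at read 10.64, 10.31, 10.65 and 10.18 in KO livers, against 8.92, 8.77, 8.92 and 8.84 in WT livers, a 3.00-fold rise (limma adjusted p = 3.3e-05). The third, 1425351_at, gave 9.92, 9.60, 9.86 and 9.04 in KO livers and 7.59, 7.58, 7.78 and 7.54 in WT livers, a 3.95-fold rise (limma adjusted p = 7.2e-05). All 3 separated the groups without overlap. The dimmest, 1419942_at, read 7.20, 6.78, 7.68 and 6.83 in KO livers and 6.17, 6.36, 7.16 and 7.14 in WT livers, where the groups overlapped and the difference of 0.42 (95% interval -0.23 to 1.07) was not called (limma adjusted p = 0.25).

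Nqo1, the quinone reductase that is often used as the readout of Nrf2 activity, was measured by 1 probe set. Its log2 signals were 8.63, 8.88, 8.24 and 8.37 in KO livers, against 9.19, 9.24, 9.13 and 9.16 in WT livers. All KO arrays were below all WT arrays, which lay within 0.11 of each other. The level was 1.57-fold lower in KO (log2 difference -0.65, SE 0.14, limma adjusted p = 0.0054), with the sign turned by hybridisation control scaling (0.098) and kept by the other 3 scalings (-0.93 to -0.74). Within each array, Srxn1 minus Nqo1 was higher in KO than in WT by 2.12 on the log2 scale (SD 0.54 in KO and 0.20 in WT, n = 4 each). The groups could not overlap here, since each gene alone already separated them in opposite directions.

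Txnrd1, the cytosolic thioredoxin reductase, has 3 probe sets, and none was called. The brightest read 12.33, 11.90, 12.15 and 12.13 in KO livers and 12.25, 11.99, 12.38 and 12.26 in WT livers, a log2 difference of -0.095 (95% interval -0.39 to 0.20, limma adjusted p = 0.56). The other two gave 0.091 (interval -0.19 to 0.37) and 0.32 (interval -0.08 to 0.71), the first with overlapping groups and the second with KO replicate 4, at 7.35, inside the WT values of 7.34 to 7.59. Without KO replicate 4 this last difference was 0.46 and was called (limma adjusted p = 0.026). Gsr, which regenerates glutathione from its disulfide, read 11.11, 10.82, 10.92 and 11.61 in KO livers and 11.25, 11.05, 10.95 and 11.07 in WT livers on its brighter probe set. The difference was 0.03 (interval -0.36 to 0.43, limma adjusted p = 0.89), and KO replicate 5 was the highest and KO replicate 3 the lowest of the 8 arrays. The other probe set of Gsr differed by 0.13 (interval -0.15 to 0.40, limma adjusted p = 0.41). These results depended on the scaling. With hybridisation control scaling, which raised the median of all genes by 0.75, all 3 probe sets of Txnrd1 (0.65, 0.84 and 1.06) and both of Gsr (0.78 and 0.87) were called higher. With 75th percentile scaling, the brightest probe set of Txnrd1 was called lower (-0.36, limma adjusted p = 0.047).

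**Figure D2:**
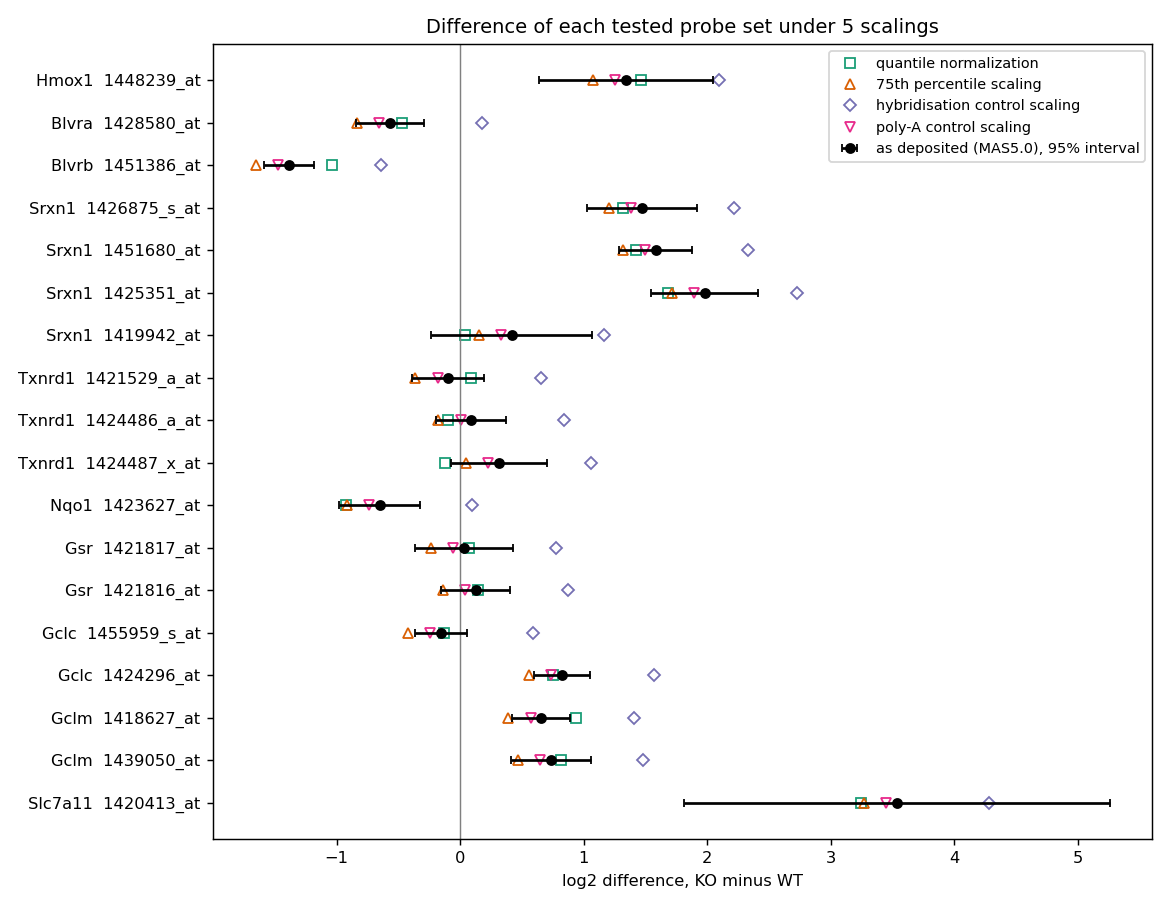
Log2 difference, KO minus WT (horizontal axis), of the 18 tested probe sets. Black points are the values as deposited with the 95% interval of limma, and open symbols the same difference after 4 other scalings. Hybridisation control scaling moved every probe set up, so that Blvra (0.18), Nqo1 (0.098), Txnrd1 on 1421529_a_at (0.65) and Gclc on 1455959_s_at (0.59) crossed zero and the other 14 stayed on their side.

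Among the genes for glutathione synthesis and cystine uptake, Gclm was higher in KO, Gclc differed between its probe sets and Slc7a11 was too dim in WT for a measured fold. Gclm, the modifier subunit of glutamate-cysteine ligase, had log2 signals of 13.22, 13.41, 13.33 and 13.17 in KO livers, against 12.79, 12.60, 12.60 and 12.53 in WT livers. The rise was 1.58-fold (log2 difference 0.66, SE 0.10, limma adjusted p = 9.9e-04). Its other probe set read 12.02, 11.79, 11.96 and 11.47 in KO livers and 11.27, 11.01, 10.96 and 11.05 in WT livers, a 1.66-fold rise (limma adjusted p = 0.0028). The groups did not overlap on either.

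Gclc, the catalytic subunit of the same enzyme, gave discordant probe sets. The brighter one, 1455959_s_at, read 10.92, 10.97, 10.91 and 10.99 in KO livers and 11.23, 11.09, 11.00 and 11.10 in WT livers. All KO values were below all WT values, but the difference of -0.16 (95% interval -0.37 to 0.05) was not called (limma adjusted p = 0.18). It was called lower with 75th percentile scaling (-0.42, limma adjusted p = 0.0049) and higher with hybridisation control scaling (0.59, limma adjusted p = 0.0025). On the other, 1424296_at, the signals were 10.42, 10.65, 10.64 and 10.68 in KO livers, against 9.82, 9.67, 9.79 and 9.80 in WT livers. Here every KO array was above every WT array, and the 1.77-fold rise (log2 difference 0.83, SE 0.10, limma adjusted p = 2.4e-04) kept its call under all 4 other scalings. In the naming of Affymetrix probe sets, the suffix _s_at marks probes that several transcripts share, so the 2 probe sets may not read the same RNAs. No direction is given for Gclc as a gene.

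Slc7a11, the cystine and glutamate exchanger, was near or under the signal minimum of 100 (6.64 on the log2 scale). Probe set 1420413_at read 6.70, 7.30, 6.68 and 7.83 in KO livers, against 3.26, 4.27, 1.36 and 5.47 in WT livers. It entered the test only through the KO mean, so a difference was built into its selection and its call (limma adjusted p = 0.0046, or 0.053 with the methods' t-test after Benjamini-Hochberg adjustment) is no independent support. Against a signal of 100 the KO level was at least 1.40-fold higher. The fitted log2 difference of 3.54 rests on WT values under the minimum, and it was 2.30 and 1.34 with pseudocounts of 16 and 64. The second probe set was not tested, since both means were below 100. It read 6.53, 6.80, 6.33 and 6.89 in KO livers and 4.66, 4.52, 4.54 and 2.22 in WT livers, where all KO arrays were again above all WT arrays.

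Beyond group means, the KO arrays differed from each other in a way that was not the same for all members. Relative to the WT mean, Hmox1 was higher by 0.66, 1.93, 0.78 and 2.01 on the log2 scale in KO replicates 2 to 5, and Slc7a11 by 3.11, 3.71, 3.09 and 4.24, so both were highest in replicates 3 and 5. Srxn1 showed the opposite order, with 1.85, 1.20, 1.78 and 1.06. Blvrb lay between -1.42 and -1.35 in all 4 arrays. The inducible heat shock genes Hspa1b and Hspa1a, near-identical copies whose probes may share RNA, had 3.15, 5.45, 3.84 and 5.30 and 3.34, 5.98, 3.45 and 5.19, and both were highest in the same arrays as Hmox1. The WT means of Slc7a11 and Hspa1a lie under a signal of 100, where differences are imprecise. The sum of 10 granulocyte marker signals was 49455 to 124732 on KO arrays, with KO replicate 5 the highest, and 47533 to 55580 on WT arrays. Its part in the array differences was not tested.

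**Figure D3:**
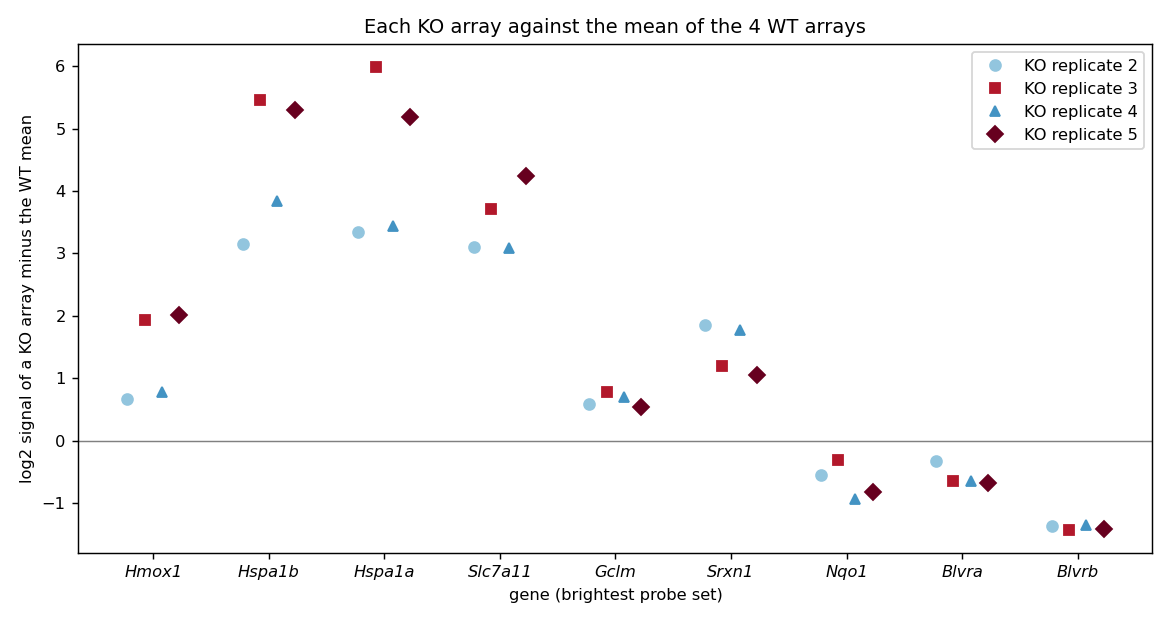
Log2 signal of each KO array minus the mean of the 4 WT arrays (vertical axis) for 7 members and the heat shock genes Hspa1a and Hspa1b, each on its brightest probe set. Each symbol is 1 KO array. KO replicates 3 and 5 had the higher values for Hmox1 (1.93 and 2.01), both heat shock genes and Slc7a11, and the lower values for Srxn1 (1.20 and 1.06).

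To find genes that followed Hmox1 over the 8 arrays, each gene was represented by its best-correlated tested probe set. The closest were Nfkbia, the inhibitor of NF-kappaB (Pearson r = 0.996), and Ddit3, a stress-induced transcription factor of the C/EBP family (0.995). Next came the sialyltransferase gene St3gal1 (0.994), App, the amyloid precursor gene (0.994), and Basp1 (0.993), which encodes a membrane-bound protein abundant in nerve endings. These correlations rest on 8 arrays that include the group difference and the common array effects, and are given as a description. Ddit3 read 9.66, 11.31, 10.01 and 11.66 in KO replicates 2 to 5, against 9.01 to 9.18 on WT arrays, with the same pair of high KO arrays as Hmox1. Nfkbia read 11.90, 13.11, 12.04 and 13.14 in KO, and 11.24 to 11.50 in WT.

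Neither Nfe2l2 nor Keap1, the core of the Nrf2 switch, was called in the deposited scaling, while some of their partners were. Nfe2l2, which encodes Nrf2, had log2 signals of 11.73, 11.73, 11.59 and 11.57 in KO livers, against 11.68, 11.57, 11.61 and 11.63 in WT livers, with overlapping groups and a difference of 0.03 (limma adjusted p = 0.78). Keap1 read 10.23, 9.76, 10.25 and 9.98 in KO livers and 10.02, 10.17, 10.32 and 10.19 in WT livers (difference -0.12, limma adjusted p = 0.49). With hybridisation control scaling both were called higher (0.78 and 0.63), and with 75th percentile scaling Keap1 was called lower (-0.38, limma adjusted p = 0.047). Of 10 measured switch genes and partners, 4 were higher and 2 were lower, beside 34.4% and 17.7% of all tested probe sets. The other 4 genes of the list were not called, and its median was 0.18. With 75th percentile scaling 3 were higher and 4 lower (median -0.085), and with hybridisation control scaling 8 were higher, beside 77.6% of all tested probe sets. The higher ones included the small Maf genes Maff (log2 difference 1.60, SE 0.21) and Mafg (0.87, SE 0.15), and the lower ones were Nfe2 (-0.86, SE 0.16), the erythroid relative of Nrf2, and Mafk (-0.69, SE 0.13, or 0.059 with hybridisation control scaling). Bach1, the heme-sensing repressor, read 11.61, 11.89, 11.52 and 11.90 in KO livers and 11.27, 11.08, 11.18 and 10.97 in WT livers. It was higher in KO by 0.60 (limma adjusted p = 0.0041).

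Other known Nrf2 targets also went both ways. Of 21 measured, 7 were higher and 9 were lower, beside 34.4% and 17.7% of all tested probe sets. The other 5 genes of the list were not called, and its median was -0.15, or 0.012 with quantile normalization. With hybridisation control scaling 13 were higher and 1 lower (median 0.59), beside 77.6% and 2.58% of all tested probe sets. With 75th percentile scaling 3 were higher and 12 lower, beside 22.3% and 30.9%. Abcc1, an exporter of glutathione conjugates, and Me1, the cytosolic malic enzyme that makes NADPH, were higher by 1.55 (SE 0.18) and 1.37 (SE 0.20). Pir (-1.16, SE 0.15) and Ptgr1 (-1.04, SE 0.13), an enzyme that reduces prostaglandin and other enones, were lower. All 4 kept their sign under the 4 other scalings.

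In glutathione and cystine metabolism, 2 of 15 measured genes were higher, 8 were lower and 5 were not called, with a median of -0.59. With hybridisation control scaling 6 were higher and 1 was lower, with a median of 0.15, beside 77.6% and 2.58% of all tested probe sets. Chac1, which degrades glutathione under stress, was higher by 1.39 (SE 0.29), and Gpx3, the plasma glutathione peroxidase, by 0.84 (SE 0.30, limma adjusted p = 0.041, with overlapping groups), a call that was lost with quantile normalization and with 75th percentile scaling. Hagh, a glyoxalase (-1.64, SE 0.12), and Chac2 (-1.12, SE 0.16) had the largest falls on the list. The thioredoxin system had 7 of 8 measured genes lower and 1 not called, with a median of -0.48. With quantile and with poly-A control scaling 4 were lower, and with hybridisation control scaling 3 were higher and 2 lower, with a median of 0.27. Txnrd2, the mitochondrial thioredoxin reductase, fell by 1.27 on the log2 scale (SE 0.086), and Prdx2, the abundant red cell peroxiredoxin, fell by 1.22 (SE 0.11). Both kept that sign under all scalings, beside the cytosolic Txnrd1, which was not called.

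Slc7a11 is also a known target of Atf4, the transcription factor of the integrated stress response. Of 17 measured genes on a list of Atf4 and its targets, 10 were higher in KO and 7 were not called. The median was 1.39 (1.02 with means under 100 set to 100) and stayed positive under all 4 other scalings. Atf4 itself (-0.075, limma adjusted p = 0.66) was not called. Asns (0.12, limma adjusted p = 0.35) was not called either, but was called higher with quantile normalization (0.50). With hybridisation control scaling all 17 were called higher, beside 77.6% of all tested probe sets. With 75th percentile scaling 9 were higher and 1 was lower, beside 22.3% and 30.9%. Trib3, a pseudokinase gene induced by stress, was higher by 2.98 (SE 0.38) and Vldlr, a lipoprotein receptor gene, by 2.58 (SE 0.30). Chac1 and Slc3a2 stand on both this list and the glutathione list. Where a WT mean lay under 100, here or among the heat shock genes (Hspa1a), a gene passed the signal minimum only through its KO mean. Its rise was then built into its selection, and its call is no independent support. Of 11 measured heat shock genes 2 were higher, Hspa1a and Hspa1b, 4 were lower and 5 were not called, with a median of -0.11. With hybridisation control scaling 7 were higher (median 0.64), and with quantile normalization only the 2 higher ones were called. Hsp90aa1 (-0.57, SE 0.11) and Hspa8 (-0.49, SE 0.15) were among the lower, but were at 0.17 and 0.25 with hybridisation control scaling, and Hspa8 was at 0.012 with quantile normalization.

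Markers of the remaining cell types differed too. Of the measured markers 9 of 12 of endothelium, 7 of 10 of stellate and matrix cells, 7 of 9 of megakaryocytes and 2 of 10 of granulocytes were higher in KO and the others were not called. Of 15 markers of hepatoblasts and hepatocytes 2 were higher and 9 were lower. Of these 15, 7 were higher and 8 not called with hybridisation control scaling. With quantile normalization 2 were higher, 1 was lower and 12 were not called. Over all tested probe sets 34.4% were called higher and 17.7% lower, so the granulocyte count was not above the background. With hybridisation control scaling these shares were 77.6% and 2.58%. Of the endothelial markers 5 were higher with quantile, poly-A control and 75th percentile scaling, the last with 1 lower, and 9 of the 10 granulocyte markers were higher with hybridisation control scaling. Summed signals were 9148 to 11050 on KO arrays and 7073 to 7516 on WT arrays for endothelium, 23915 to 38084 on KO arrays and 17322 to 20256 on WT arrays for stellate and matrix cells, and 31468 to 40462 on KO arrays and 25522 to 28698 on WT arrays for megakaryocytes, without overlap in any of the 3. For hepatocyte markers they were 184786 to 214275 on KO arrays and 269044 to 290690 on WT arrays, all in the deposited scaling. Their part in the values of the 10 genes was not tested.

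**Figure D4:**
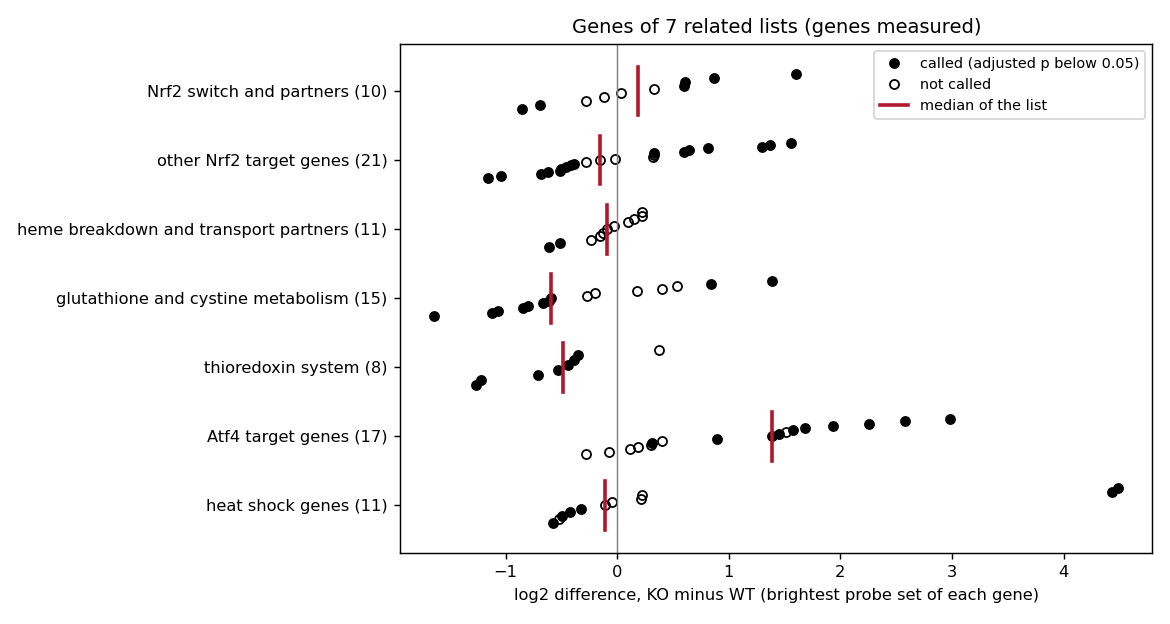
Log2 difference, KO minus WT (horizontal axis), of the measured genes of 7 lists, each gene on its brightest probe set. Filled points were called, open points were not, and the red line is the median of the list. The list of Atf4 and its targets has a median of 1.39 and the thioredoxin system one of -0.48. The 2 heat shock genes at the far right are Hspa1a, whose WT mean lies under a signal of 100, and Hspa1b.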

How the data were processed

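Total RNA of E14.5 fetal livers from 4 KO and 4 WT embryos was measured on Affymetrix Mouse Genome arrays. The authors normalized by MAS5.0 and deposited linear signal intensities. MAS5 and R 3.0.2 are named in the submitters' processing notes. Any 2 arrays had at most 1 value in common, so all 8 were kept as samples. Of 45101 probe sets, 34945 have 1 gene symbol, 932 have several, 9160 have none and 64 are controls. The annotation can be old.

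Log2 values were taken without a pseudocount. Probe sets with a KO or WT mean above a signal of 100 were tested with limma 3.58.1 (lmFit and eBayes, two-sided, genotype as the only term) in R 4.3.3, adjusted by Benjamini-Hochberg over all 23379 and called below 0.05. The test was tried on simulated data with known changes. Other steps used Python 3.11.15 with pandas 2.3.3 and numpy 2.4.6. The number of arrays limits the precision.

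All members and all their probe sets are named. Elsewhere a gene is shown by its brightest probe set (mean of 8 arrays), except that genes that followed Hmox1 are shown by their best-correlated one. Each pathway list is illustrated by the called genes that rose and fell most, at most 2 each way. Nfe2l2, Keap1, Bach1, Atf4, Asns, Timd4, Cd163 and Vsig4 were named outside this rule, after their values were seen. The members, the 7 pathway lists and the 7 marker lists were chosen with earlier results of these data known. A group mean under 100 gives a fold as at least, against 100. Lists are described by counts and medians and were not tested as sets. Same-numbered KO and WT arrays did not deviate together (correlations -0.00084, -0.082 and -0.027). These rest on few pairs and on values centred within each group, so they cannot exclude a pairing. The main test did not pair samples by number. Alternatives were 4 scalings, pseudocounts of 16 and 64, other filters and limma options, the methods' t-test, the replicate number as a block, the mean over a gene's probe sets, and leaving out each array.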

Additional observations from a re-analysis of the deposited data

Results flagged for a closer look

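In 4 of 38 groups of 4 arrays (each probe set of the 10 genes in each genotype), 1 array lay further from its nearest neighbour than Dixon's 95% critical value allows. Chance alone flags about 1 in 20 such groups. Blvra read 11.44 in KO replicate 2, with the other KO arrays at 11.08 to 11.12 (gap 0.897 of the range). On probe set 1424296_at of Gclc, KO replicate 2 read 10.42, with the other KO arrays at 10.64 to 10.68 (0.865), and WT replicate 2 read 9.67, with the other WT arrays at 9.79 to 9.82 (0.85). On the dimmer probe set of Slc7a11, WT replicate 4 read 2.22, with the other WT arrays at 4.52 to 4.66 (0.943), all of them under the signal minimum of 100.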

How the results depend on the processing

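Klf1 stayed between -3.56 and -2.55 under every alternative. Of 380 comparisons of the 10 genes' tested probe sets with an alternative, 375 had a test, and the others were means over a gene's probe sets. In 351 the direction was kept, and with it the side of the threshold where there was a test, and 16 changed sign. Whatever the sign, 6 lost their call and 11 became called, among them 2 of each kind that also changed sign. Over the whole array, calls numbered 8049 higher and 4146 lower in KO. This split was 5592 and 5384 with quantile normalization, 5213 and 7230 with 75th percentile scaling, 18139 and 603 (18742 in all) with hybridisation control scaling and 5789 and 3017 with poly-A control scaling. The members had 15 calls higher (83.3%, against 77.6% of all) and 1 lower (5.56%, against 2.58%) with hybridisation control scaling. They had 5 lower (27.8%, against 30.9%) with 75th percentile scaling. Leaving out 1 array gave 11 to 12 member calls and 10625 to 12100 calls overall.

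Values of opposite sign were 0.18 for Blvra, 0.098 for Nqo1, 0.65 for Txnrd1 on 1421529_a_at and 0.59 for Gclc on 1455959_s_at with hybridisation control scaling. With quantile normalization they were 0.090 for Txnrd1 on 1421529_a_at, -0.098 on 1424486_a_at and -0.12 on 1424487_x_at. With 75th percentile scaling they were -0.18 for Txnrd1 on 1424486_a_at, and -0.23 and -0.14 for Gsr on 1421817_at and 1421816_at. Gsr on 1421817_at was also at -0.054 with poly-A scaling, -0.01 without WT replicate 3 and -0.13 to 0.13 over all arrays left out, the lowest without KO replicate 5. The mean over a gene's tested probe sets was 0.10 for Txnrd1 and 0.33 for Gclc. The causes were not tested. Slc7a11 did not pass the 2 stricter filters, and the methods' t-test after Benjamini-Hochberg adjustment called 9 member probe sets, without Hmox1 (adjusted p = 0.071) and Slc7a11 (0.053).

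With the replicate number as a block, over the 3 numbers that both genotypes share, 7780 probe sets were called, 2201 of them lower in KO. Of the members 9 were called, 1 of them lower. Blvra (-0.48, adjusted p = 0.070) and Nqo1 (-0.59, adjusted p = 0.063) were not called under the block, and Gsr on 1421817_at was at -0.075. KO replicate 5 and WT replicate 1 have no partner there, and the block leaves fewer degrees of freedom. Single signals carry no count of molecules, and values under a signal of 100, such as those of Slc7a11 in WT, have little precision.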
